A study of Mus musculus with 12 samples.

Results

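The FGF ligand genes are a set of 8 genes that encode secreted fibroblast growth factors, namely Fgf3, Fgf4, Fgf5, Fgf8, Fgf10, Fgf15, Fgf17 and Fgf18. They were picked by gene symbol and not by any measured value, and all 8 were among the 24736 genes of the deposited expression table. RNA sequencing of polyadenylated RNA was collected from 12 mouse cultures in 4 groups of 3 biological replicates, each harvested 72 h after embryonic stem cells were put into differentiation medium. The question was how the response of epiblast-like cells to WNT signalling depends on the level of the transcription factor SOX2.

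Every culture was grown for 2 days in bFGF (FGF2 protein, 10 ng/ml) and LGK974 (5 µM), an inhibitor of WNT secretion, and both factors stayed in the medium until day 3. Wild type cultures without further additions made up the EpiLC group (epiblast-like cells). Wild type cultures given CHIR99021, a GSK3 inhibitor that activates WNT signalling, from day 2 to day 3 made up the CEpiLC group (caudal epiblast-like cells). SOX2-OFF and SOX2-ON received CHIR99021 in the same way but came from SOX2 TetON cells, which were made from the XY HM1 TetON line that served as the wild type. SOX2 TetON cells are Sox2-/- at the endogenous locus and carry a doxycycline-inducible Sox2 transgene in Hprt, with the activator expressed from Rosa26. Differentiation took place without doxycycline in SOX2-OFF and with 1 µg/ml of it in SOX2-ON. These groups share a single line, whereas line and treatment cannot be told apart when either is set against a wild type group. No SOX2 TetON culture without CHIR99021 was analysed here.

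Fibroblast growth factors bind receptor tyrosine kinases at the cell surface and activate the RAS and ERK cascade. In the mouse embryo, Fgf5 is a classical marker of the epiblast after implantation and Fgf4 is made by the early epiblast. Fgf8, Fgf17 and Fgf18 form a subfamily of related ligands, and Fgf8 is made in the primitive streak and tail bud, where it is needed for mesoderm cells to leave the streak. Since these were whole cultures, a lower level can mean fewer cells that express a gene or less RNA per cell, and these cannot be told apart.

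The libraries held 10408252 to 27337740 expected counts. Levels are given as TPM, a share of all transcripts that is scaled for transcript length, and changes as log2 fold changes with a standard error (SE) from the counts. Sox2 was at 119 to 171 TPM in EpiLC, at 7.78 to 13.7 TPM in CEpiLC, at 12.3 to 21.2 TPM in SOX2-OFF, and at 173 to 215 TPM in SOX2-ON. Sox2 was thus not lower in the libraries labelled SOX2-OFF than in CEpiLC (0.65 on the log2 scale, SE 0.24, edgeR adjusted p = 0.0367), and the table does not separate the transgene from the endogenous gene. The caudal marker T was at 0.45 to 0.68 TPM in EpiLC, and at 474 to 892, 792 to 830 and 138 to 172 TPM in CEpiLC, SOX2-OFF and SOX2-ON. All 4 epiblast markers checked were present at 1 TPM or more in every group, but 3 of them were much reduced outside EpiLC. In CEpiLC against EpiLC, Otx2 gave -6.08 (SE 0.25), Pou3f1 -4.34 (SE 0.26) and Dnmt3b -3.22 (SE 0.16) on the log2 scale. The same 3 were lower than in EpiLC in SOX2-OFF and SOX2-ON. Pou5f1 gave -0.06 (SE 0.10) in CEpiLC against EpiLC. The median gene on chromosome 11 was lower by 0.52 (log2) in SOX2 TetON than in wild type cells, and the medians of chromosomes 6 and 8 were higher by 0.58 and 0.61. Fgf18 is the only one of the 8 ligand genes on these 3 chromosomes.

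The members lie on 6 chromosomes of the mm10 assembly. Fgf3 (chr7:144838612-144843348), Fgf4 (chr7:144861386-144865245) and Fgf15 (chr7:144896532-144900953) lie next to each other. The others are Fgf5 (chr5:98254184-98277033), Fgf8 (chr19:45736491-45742941), Fgf10 (chr13:118714699-118792573), Fgf17 (chr14:70636203-70642268) and Fgf18 (chr11:33116970-33147400). RefSeq promoter sequences (GRCm38.p6) were matched for 5 members: Fgf3, Fgf4, Fgf5, Fgf10 and Fgf18. The 250 bases before each start were searched on both strands for the letters TCAAAG (TCF/LEF), ACAATG (SOX), TTTATG (CDX), AGGTGTNA (T-box) and CCGGAA (ETS). These were found in 14, 11, 11.1, 2.69 and 12.2% of 27025 promoters of the same length. Among the 5 members there were 2 matches, TCAAAG in Fgf3 at -197 to -192 and, on the other strand, CCGGAA in Fgf5 at -241 to -236, counted from the start.

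The promoters of the neighbours Fgf3 and Fgf4 are shown because these genes lie side by side, and that of Fgf5 because it was the most abundant ligand transcript in EpiLC. Each stretch covers -250 to -51 on the plus strand, with the motif matches in capitals, for Fgf3 at chr7:144838362-144838561, Fgf4 at chr7:144861136-144861335 and Fgf5 at chr5:98253934-98254133.
Fgf3: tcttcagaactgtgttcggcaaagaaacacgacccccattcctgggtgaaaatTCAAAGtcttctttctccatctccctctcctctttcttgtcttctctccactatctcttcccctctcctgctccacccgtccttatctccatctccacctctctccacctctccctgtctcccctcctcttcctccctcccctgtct
Fgf4: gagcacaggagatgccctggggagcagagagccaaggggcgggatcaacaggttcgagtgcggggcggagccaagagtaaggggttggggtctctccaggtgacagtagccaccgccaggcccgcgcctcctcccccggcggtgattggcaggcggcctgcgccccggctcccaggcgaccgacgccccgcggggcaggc
Fgf5: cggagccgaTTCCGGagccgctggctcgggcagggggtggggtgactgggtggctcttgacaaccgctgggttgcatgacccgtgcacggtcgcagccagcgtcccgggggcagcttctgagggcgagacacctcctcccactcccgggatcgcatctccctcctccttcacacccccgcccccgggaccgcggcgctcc
Over the full 250 bases, GC content was 55.2% with 4 CpG in Fgf3, 71.2% with 21 CpG in Fgf4 and 70.8% with 24 CpG in Fgf5, against a median GC content of 52.0% over all promoters. A match is a description of the letters and was not tested as a binding site.

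All 8 members passed the filter on low counts and entered the test with 14196 genes in all. The call rule was an adjusted p no higher than 0.05 in edgeR's quasi-likelihood test. In CEpiLC against EpiLC, 5 of the 8 members were called, 4 higher (Fgf3, Fgf8, Fgf17 and Fgf18) and 1 lower (Fgf5), where 42.2% of all genes tested were called. SOX2-OFF against CEpiLC gave 7 members called, 2 higher and 5 lower, beside 48.5% of all genes. SOX2-ON against CEpiLC gave 5, 1 higher and 4 lower, beside 56.5%. In SOX2-ON against SOX2-OFF, 3 members were called, all lower, beside 28.8%. Against EpiLC, 4 members were called in SOX2-ON (2 higher and 2 lower, beside 59.8% of all genes) and 6 in SOX2-OFF (4 higher and 2 lower, beside 62.1%). Applied to 8 genes, these background shares would amount to 3.38, 3.88, 4.52, 2.31, 4.78 and 4.97 genes in the order given. The comparisons share groups and so are not independent of each other. The median log2 fold change over the members was 1.08 in CEpiLC against EpiLC, -1.14 in SOX2-OFF against CEpiLC, -0.95 in SOX2-ON against CEpiLC and -0.32 in SOX2-ON against SOX2-OFF, where the medians over all genes tested were 0.01, -0.01, -0.01 and -0.01.

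**Figure D1:**
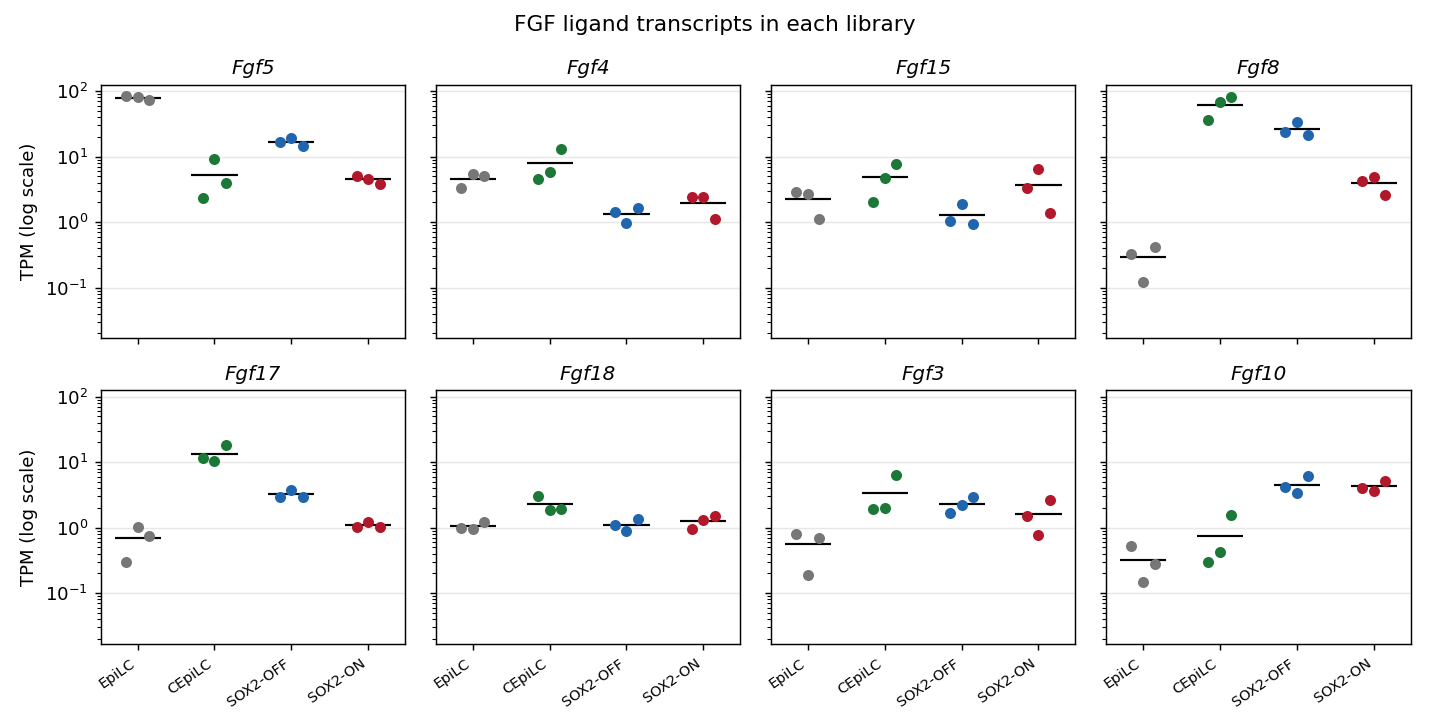
Level of each FGF ligand gene in the 12 libraries, in TPM on a log axis, with 1 panel per gene, points for replicates and bars for group means. Fgf5 is highest in EpiLC at 74.3 to 83.0 TPM, Fgf8 and Fgf17 are highest in CEpiLC, and Fgf10 is higher in both SOX2 TetON groups than in either wild type group.

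Fgf5, the epiblast ligand, was at 83.0, 81.3 and 74.3 TPM in the EpiLC replicates and at 2.34, 9.27 and 3.97 TPM in CEpiLC. It was at 16.7, 19.0 and 14.3 TPM in SOX2-OFF and at 4.98, 4.62 and 3.85 TPM in SOX2-ON. The EpiLC and SOX2-OFF libraries overlapped with no other group, whereas all SOX2-ON values fell within the range of CEpiLC. Fgf5 fell in CEpiLC against EpiLC by 3.95 on the log2 scale (SE 0.32, edgeR adjusted p = 9.0e-07). In SOX2-OFF it was 1.72 above CEpiLC (SE 0.32, edgeR adjusted p = 6.9e-04) on the same scale. Within the SOX2 TetON line it was lower with doxycycline than without, at -1.94 (SE 0.33, edgeR adjusted p = 6.7e-04). CEpiLC was the least uniform group for this gene: without CEpiLC replicate 2 the first difference was -4.73 and the SOX2-OFF difference 2.51. SOX2-ON against CEpiLC gave -0.22 (SE 0.36, edgeR adjusted p = 0.623), and its sign depended on single CEpiLC libraries. It was -0.65 without CEpiLC replicate 1 (edgeR adjusted p = 0.0496) and 0.56 without CEpiLC replicate 2 (edgeR adjusted p = 0.0484).

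Fgf4, a ligand of the inner cell mass and early epiblast, was at 3.27, 5.49 and 5.07 TPM in EpiLC and at 4.63, 5.83 and 13.3 TPM in CEpiLC. These ranges overlapped, and the difference of 0.76 (SE 0.37, edgeR adjusted p = 0.119) did not pass. It was 0.19 without CEpiLC replicate 3 (edgeR adjusted p = 0.654), and it passed without CEpiLC replicate 1 (1.04, edgeR adjusted p = 0.0380). Levels were 1.45, 0.96 and 1.63 TPM in SOX2-OFF and 2.41, 2.39 and 1.12 TPM in SOX2-ON, below every wild type library. Against CEpiLC, Fgf4 was lower, at -2.53 in SOX2-OFF (SE 0.43, edgeR adjusted p = 3.0e-04) and -1.99 in SOX2-ON (SE 0.40, edgeR adjusted p = 8.8e-04). The SOX2 TetON groups differed from each other by 0.54 (SE 0.46, edgeR adjusted p = 0.417), with overlapping values. Against EpiLC the log2 fold change was -1.77 in SOX2-OFF (SE 0.43, edgeR adjusted p = 0.0030) and -1.24 in SOX2-ON (SE 0.40, edgeR adjusted p = 0.0176). The last of these calls was lost without EpiLC replicate 2 (-1.08) or without SOX2-ON replicate 3 (-0.94), with edgeR adjusted p of 0.0643 and 0.0719.

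Fgf8, the primitive streak and tail bud ligand, was nearly absent from EpiLC, with 3, 1 and 3 counts in the replicates (0.33, 0.12 and 0.42 TPM). In CEpiLC it was at 36.8, 67.3 and 82.2 TPM, which made it the most abundant of the members there. It was at 23.5, 34.1 and 21.3 TPM in SOX2-OFF and at 4.29, 4.95 and 2.58 TPM in SOX2-ON. The 4 groups were separate from one another at every library. Pooled over the replicates and scaled to library totals, the counts were 201 times higher in CEpiLC than in EpiLC, 95.2 times higher in SOX2-OFF and 13.6 times higher in SOX2-ON. The exact 95% intervals, which cover counting error alone, ran from 97.2 to 500.4, from 45.9 to 238 and from 6.34 to 34.7. The fitted log2 fold changes against EpiLC were 7.71 (SE 0.48), 6.49 (SE 0.51) and 3.69 (SE 0.65), all called, but with so few EpiLC counts they depend on the prior count. SOX2-OFF was below CEpiLC (-1.22 on the log2 scale, SE 0.27, edgeR adjusted p = 0.0023). SOX2-ON was far lower again, at -4.01 against CEpiLC (SE 0.33, edgeR adjusted p = 5.6e-07) and -2.79 against SOX2-OFF (SE 0.33, edgeR adjusted p = 4.8e-05).

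Fgf17, of the Fgf8 subfamily, was at 0.30, 1.04 and 0.75 TPM in EpiLC and at 11.4, 10.4 and 18.3 TPM in CEpiLC. It was at 2.91, 3.79 and 2.98 TPM in SOX2-OFF and at 1.01, 1.23 and 1.03 TPM in SOX2-ON. The order of the groups was that of Fgf8, except that SOX2-ON overlapped with EpiLC (0.64, SE 0.42, edgeR adjusted p = 0.207). Fgf17 rose in CEpiLC against EpiLC by 4.26 on the log2 scale (SE 0.34, edgeR adjusted p = 7.5e-07). Against CEpiLC it was lower in SOX2-OFF (-2.0, SE 0.28, edgeR adjusted p = 6.5e-05) and in SOX2-ON (-3.62, SE 0.32, edgeR adjusted p = 9.2e-07). SOX2-ON was also below SOX2-OFF (-1.62 in log2, SE 0.34, edgeR adjusted p = 0.0033).

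Fgf18, the remaining gene of that subfamily, stayed at low levels throughout. It was at 1.00, 0.94 and 1.24 TPM in EpiLC, 2.99, 1.86 and 1.94 TPM in CEpiLC, 1.08, 0.90 and 1.35 TPM in SOX2-OFF and 0.97, 1.29 and 1.48 TPM in SOX2-ON. The CEpiLC libraries were above all others and the remaining 3 groups overlapped. Fgf18 was higher in CEpiLC than in EpiLC by 1.15 (SE 0.29, edgeR adjusted p = 0.0069), a call that was lost without CEpiLC replicate 1 (0.85, edgeR adjusted p = 0.0559). It was lower than in CEpiLC in SOX2-OFF (-1.07, SE 0.30, edgeR adjusted p = 0.0095) and SOX2-ON (-0.93, SE 0.29, edgeR adjusted p = 0.0136). Those differences moved with the chromosome 11 difference between the lines. With the chromosome medians removed they were -0.55 and -0.39 and neither passed (edgeR adjusted p = 0.153 and 0.269). Both were also lost without CEpiLC replicate 1 (-0.76 and -0.63), the first without SOX2-OFF replicate 2 (-0.92), and the second without SOX2-ON replicate 1 (-0.79) or in DESeq2 (-0.92).

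Fgf3, a ligand with roles in inner ear and tail development, was at 0.81, 0.19 and 0.70 TPM in EpiLC and at 1.95, 2.02 and 6.26 TPM in CEpiLC. It was at 1.68, 2.23 and 2.97 TPM in SOX2-OFF and at 1.51, 0.76 and 2.66 TPM in SOX2-ON. The 3 groups with CHIR99021 overlapped, and EpiLC lay below CEpiLC and SOX2-OFF. The log2 fold change in CEpiLC against EpiLC was 2.46 (SE 0.64, edgeR adjusted p = 0.0075), or 1.79 without CEpiLC replicate 3. SOX2-OFF was above EpiLC by 2.0 (SE 0.66, edgeR adjusted p = 0.0182), which no longer passed without EpiLC replicate 2 (1.57) or SOX2-OFF replicate 3 (1.80). SOX2-ON gave 1.49 (SE 0.68, edgeR adjusted p = 0.0740) against EpiLC. That value passed with the replicate number as a block (1.39, edgeR adjusted p = 0.0293), without CEpiLC replicate 3 (1.5, edgeR adjusted p = 0.0294) and without SOX2-ON replicate 2 (1.84, edgeR adjusted p = 0.0363). Neither SOX2 TetON group differed from CEpiLC past the threshold, with -0.46 (SE 0.53) and -0.97 (SE 0.54), and the first value was 0.22 without CEpiLC replicate 3. The second passed with the block (-0.99, edgeR adjusted p = 0.0435) but was -0.29 without CEpiLC replicate 3 (edgeR adjusted p = 0.634).

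Fgf15, an FGF of the endocrine subfamily and the mouse counterpart of human FGF19, varied widely among replicates. It was at 2.89, 2.69 and 1.12 TPM in EpiLC, 2.03, 4.64 and 7.85 TPM in CEpiLC, 1.04, 1.88 and 0.92 TPM in SOX2-OFF and 3.31, 6.37 and 1.37 TPM in SOX2-ON. Only SOX2-OFF and CEpiLC were separate, and the remaining pairs of groups overlapped. SOX2-OFF was lower than CEpiLC (-1.78 in log2, SE 0.61, edgeR adjusted p = 0.0269). This call did not hold without CEpiLC replicate 2 (-1.79) or 3 (-1.27), without SOX2-OFF replicate 1 (-1.62) or 3 (-1.63), or in limma-voom (-1.43, adjusted p = 0.113). SOX2-ON was 1.42 above SOX2-OFF (SE 0.61, edgeR adjusted p = 0.0979), and this passed in DESeq2 (1.46, adjusted p = 0.0456) and without SOX2-ON replicate 3 (1.81, edgeR adjusted p = 0.0294). Without SOX2-ON replicate 2 it was 0.80 (edgeR adjusted p = 0.400). CEpiLC against EpiLC gave 1.00 (SE 0.56, edgeR adjusted p = 0.167), or 0.49 without CEpiLC replicate 3.

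Fgf10, a ligand best known from mesenchyme in limb and lung budding, was at 0.53, 0.15 and 0.28 TPM in EpiLC and at 0.30, 0.43 and 1.54 TPM in CEpiLC. It was at 4.20, 3.36 and 6.11 TPM in SOX2-OFF and at 3.97, 3.61 and 5.18 TPM in SOX2-ON. Every SOX2 TetON library was above every wild type library, and the groups of the same line overlapped. The log2 fold change against CEpiLC was 2.81 in SOX2-OFF (SE 0.48, edgeR adjusted p = 3.0e-04) and 2.68 in SOX2-ON (SE 0.47, edgeR adjusted p = 3.4e-04), and without CEpiLC replicate 3 it was 3.66 and 3.53. Against EpiLC it was 3.78 (SE 0.51) and 3.64 (SE 0.51), or 4.44 and 4.30 without EpiLC replicate 1. SOX2-ON and SOX2-OFF differed by -0.14 (SE 0.39, edgeR adjusted p = 0.831), and CEpiLC and EpiLC by 0.97 (SE 0.61, edgeR adjusted p = 0.225). The latter was 0.12 without CEpiLC replicate 3, the library at 1.54 TPM, and 1.62 without EpiLC replicate 1, and it passed in neither case.

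Most of 8 markers of extraembryonic endoderm were likewise higher in both SOX2 TetON groups. Afp and Apoa1 were not: they had at most 4 counts in any library and did not enter the test. The summed level of the 8 markers was 0.85 to 2.28 TPM in EpiLC, 1.54 to 4.70 TPM in CEpiLC, 143 to 162 TPM in SOX2-OFF and 77.5 to 199 TPM in SOX2-ON. Cubn alone averaged 83.7 TPM in SOX2-OFF and 45.2 TPM in SOX2-ON, so the sums lean on this gene. Of these markers, 6 averaged at least 1 TPM in SOX2-OFF (Sox17, Sox7, Gata4, Gata6, Ttr and Cubn) and 5 in SOX2-ON, where Ttr was below. None did so in EpiLC, 2 did in CEpiLC (Gata4 and Gata6), and Ttr was at 0 in every CEpiLC library. The order of libraries within groups was mixed. In SOX2-OFF and EpiLC, the library with the most Fgf10 (6.11 and 0.53 TPM) had the lowest summed level of these markers (143 and 0.85 TPM). In SOX2-ON and CEpiLC, the library with the most Fgf10 (5.18 and 1.54 TPM) had the highest summed level (199 and 4.70 TPM). The summed level of 6 naive pluripotency markers separated the lines as well. It was 12.5 to 18.0 TPM in EpiLC and 12.9 to 16.7 TPM in CEpiLC. In SOX2-OFF it was 47.7 to 58.1 TPM and in SOX2-ON 147 to 166 TPM. Not every marker followed the sum. Klf2 was lower in SOX2-OFF (0.87 to 1.63 TPM) than in EpiLC (5.36 to 11.7 TPM). Nr5a2 was lower in SOX2-OFF (0.34 to 0.41 TPM) than in CEpiLC (0.52 to 0.74 TPM). The SOX2 TetON groups also differed from each other: 4 of the 6 were called higher in SOX2-ON than in SOX2-OFF, beside 28.8% of all genes. The part of either list in the Fgf10 difference was not tested.

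**Figure D2:**
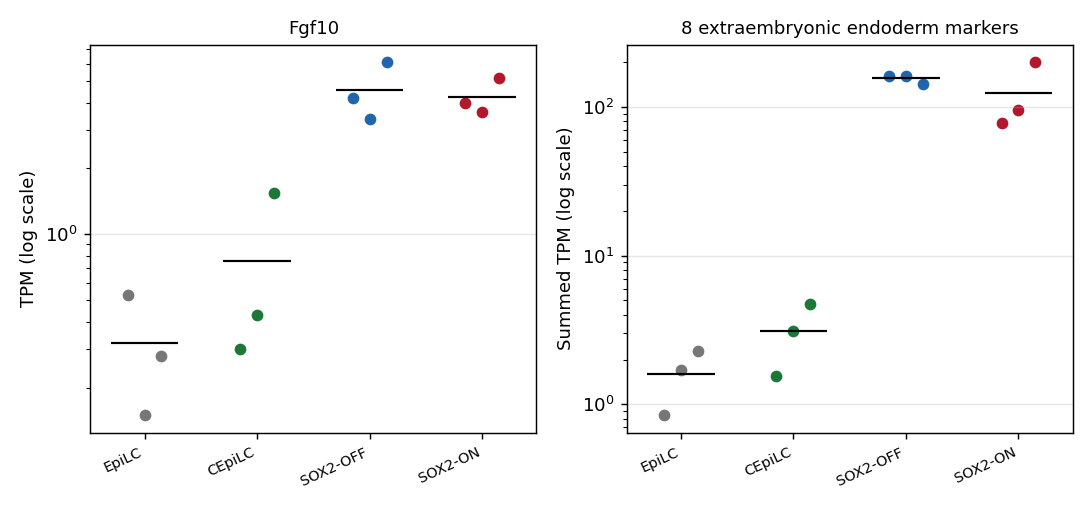
Fgf10 (left, TPM) and the summed level of 8 extraembryonic endoderm markers (right, summed TPM) in the 12 libraries, both on log axes, with points for replicates and bars for group means. In both panels all 6 SOX2 TetON libraries lie above all 6 wild type libraries, with Fgf10 at 3.36 to 6.11 TPM against 0.15 to 1.54 TPM.

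**Figure D3:**
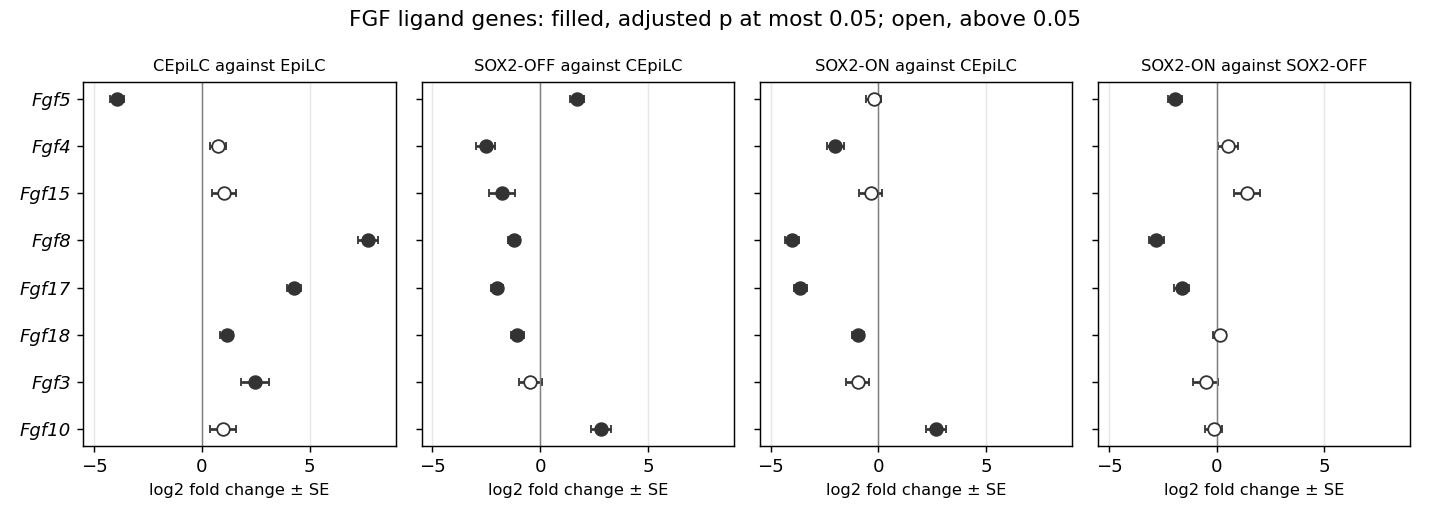
log2 fold change of each FGF ligand gene with its SE in 4 comparisons of the 3 replicates per group, filled where the adjusted p was at most 0.05. Fgf8 and Fgf17 rise with CHIR99021 (7.71 and 4.26) and are lower in SOX2-ON than in SOX2-OFF (-2.79 and -1.62), while Fgf10 passes the test in the comparisons between lines (2.81 and 2.68) and not in the other 2.

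Added together, the 8 members reached 83.8 to 92.1 TPM in EpiLC, 62.5 to 135 TPM in CEpiLC, 51.6 to 66.2 TPM in SOX2-OFF and 19.3 to 25.2 TPM in SOX2-ON. In TPM the EpiLC and CEpiLC ranges overlapped, whereas SOX2-ON was below all other libraries. Fgf5 made up 89.0% ± 0.91 (SD, n = 3) of the sum in EpiLC and 5.27% ± 3.36 in CEpiLC. Fgf8 made up 0.33% ± 0.19 in EpiLC, 62.0% ± 3.74 in CEpiLC and 45.9% ± 5.18 in SOX2-OFF, where Fgf5 held 29.3% ± 2.09. In SOX2-ON the TPM shares were 20.2% ± 1.94 for Fgf5, 19.6% ± 6.50 for Fgf10 and 17.4% ± 3.46 for Fgf8. In CPM, a share of all counts that is not scaled for transcript length, the mean sum in CEpiLC was 0.63 times that of EpiLC, against 1.12 times in TPM. The CPM sums of these groups did not overlap, at 103 to 113 in EpiLC and 42.8 to 96.6 in CEpiLC. On the CPM scale Fgf8 held 42.9% of the sum in CEpiLC. In SOX2-OFF the order turned, with 40.0% for Fgf5 and 23.5% for Fgf8. In SOX2-ON Fgf10 led with 38.7%, beside 21.0% for Fgf5 and 6.84% for Fgf8.

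**Figure D4:**
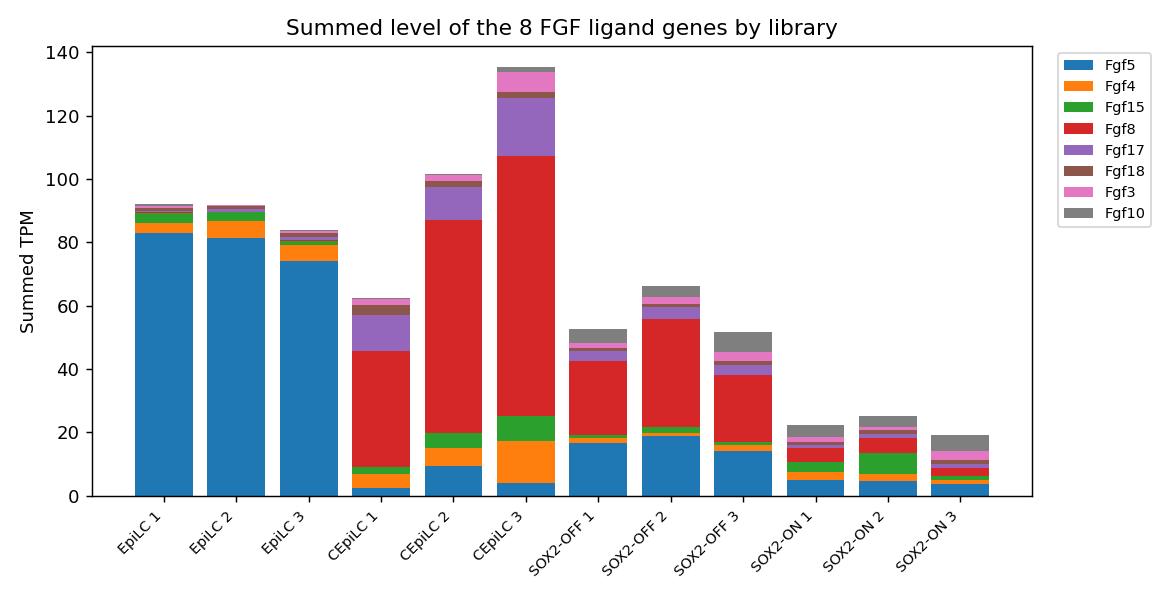
Summed TPM of the 8 FGF ligand genes in each library, stacked by gene from 0. Fgf5 fills most of the EpiLC bars (89.0% on average) and Fgf8 most of the CEpiLC bars (62.0%), and the SOX2-ON bars are the lowest at 19.3 to 25.2 TPM.

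Replicates of CEpiLC were spread unevenly. CEpiLC replicate 3 had the highest level of 6 of the 8 members in its group and CEpiLC replicate 1 the lowest of 6. The same count was not made over all genes, so it cannot be called particular to the members. The summed level of 4 paraxial mesoderm markers, which include Msgn1 and Tbx6, was 566 TPM in CEpiLC replicate 3 against 118 and 151 TPM in replicates 1 and 2. That library was also the smallest of all, at 10408252 expected counts, and replicate 1 the largest, at 27337740. Whether either moved the ligand values was not tested. Genes of fibroblast feeders, on which the stem cells had been propagated, summed to 36.2 to 81.5 TPM in wild type and 16.4 to 36.3 TPM in SOX2 TetON libraries. Thy1 alone was at 24.7 to 66.8 TPM in wild type and 6.53 to 11 TPM in SOX2 TetON libraries. Without it, a sum taken after seeing the data, the ranges overlapped, at 11.5 to 34.6 TPM and 9.82 to 25.3 TPM. None of the other 4 genes passed the edgeR test against CEpiLC in either SOX2 TetON group, and against EpiLC Col1a2 was higher in SOX2-OFF by 0.99 on the log2 scale. Col1a2 is on chromosome 6, whose median was higher in SOX2 TetON cells. It was also higher in wild type CEpiLC than in EpiLC (1.39, SE 0.33, edgeR adjusted p = 0.0048). The part of the feeder genes in the differences between lines was not tested.

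Nearest tested neighbours were read from the same fit to see whether a member moved with its surroundings. Npm3, which lies 4.8 kb from Fgf8 and encodes a histone chaperone, differed by 0.51 (SE 0.10) in CEpiLC against EpiLC and -0.64 (SE 0.10) in SOX2-ON against SOX2-OFF, both called and both smaller than the Fgf8 changes of 7.71 and -2.79. Dmtn, 0.2 kb from Fgf17 and a gene for an actin-binding protein, rose between CEpiLC and SOX2-OFF (1.17, SE 0.19, edgeR adjusted p = 2.2e-04), where Fgf17 was lower (-2.0). Dmtn was higher together with Fgf17 in CEpiLC against EpiLC (1.08 beside 4.26) and in SOX2-OFF against EpiLC (2.24 beside 2.26), all called. Around Fgf5, Prdm8 was higher by 1.81 (SE 0.40, edgeR adjusted p = 0.0022) in SOX2-OFF against CEpiLC, near the 1.72 of Fgf5. In CEpiLC against EpiLC, however, Prdm8 gave -0.16 (SE 0.46) and Fgf5 -3.95. On the other side of Fgf5, 1700007G11Rik, 52.1 kb away, was lower together with Fgf5 in that comparison (-1.48, SE 0.40, edgeR adjusted p = 0.0092). In SOX2-OFF against CEpiLC, where Fgf5 was higher, 1700007G11Rik gave -0.11 (SE 0.49).

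On chromosome 11 the neighbours of Fgf18 were below their CEpiLC levels in SOX2-OFF, like Fgf18 itself. Npm1, 5.1 kb away, gave -0.65 (SE 0.05) and Fbxw11 gave -0.70 (SE 0.06), both called, beside -1.07 for Fgf18. In CEpiLC against EpiLC, where the line was the same, they gave 0.01 (SE 0.05) and -0.05 (SE 0.06) beside 1.15 for Fgf18. The neighbours of Fgf10 lie 327 kb (Mrps30) and 543 kb (Nnt) away and gave -0.10 (SE 0.06) and -0.34 (SE 0.10) in SOX2-OFF against CEpiLC. Ano1 and Oraov1, on either side of the Fgf3, Fgf4 and Fgf15 group, gave -0.07 (SE 0.31) and 0.07 (SE 0.10) there and passed in neither case, while Fgf4 gave -2.53.

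**Figure D5:**
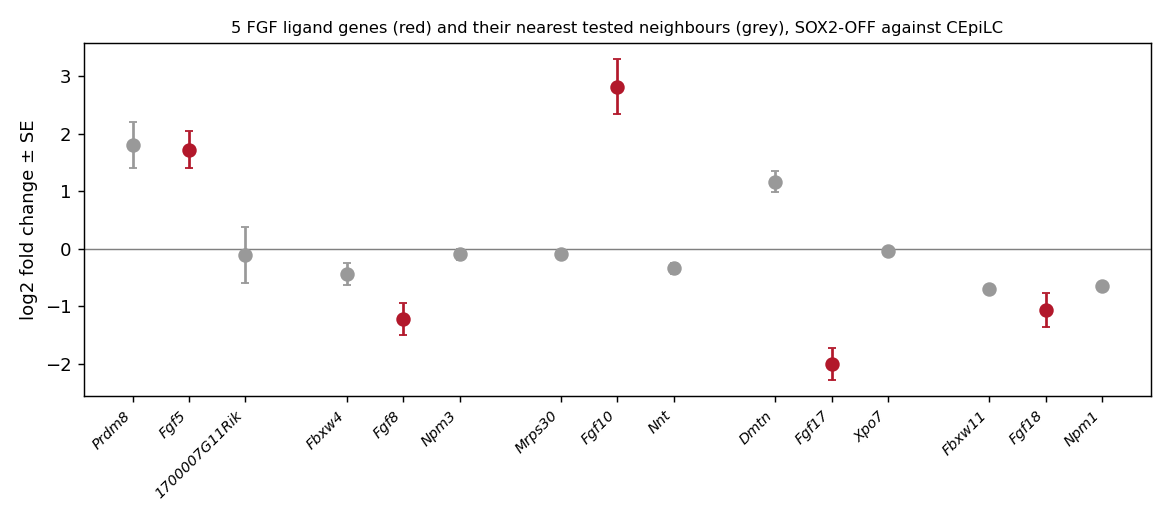
log2 fold change with its SE in SOX2-OFF against CEpiLC for 5 FGF ligand genes (red) and the nearest tested gene on each side (grey). Fgf18 and both of its neighbours lie below 0 (-0.70, -1.07 and -0.65), whereas Fgf17 (-2.0) and Dmtn (1.17) point in opposite directions.

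The genes most like 7 of the members were those with the smallest root mean square difference in log2 CPM, with each gene centred over the 12 libraries, among 10870 genes. Fgf8 was followed most closely by Rspo3, an R-spondin that potentiates WNT signalling, at a difference of 0.41 where Fgf8 itself had an SD of 2.79, and then by Ptgs1 (0.72). The nearest to Fgf17 were Scn2b (0.51) and Apln (0.63), to Fgf5 Mmp25 (0.78) and Rab25 (0.83), and to Fgf10 Lama1 (0.49), a laminin chain of basement membranes, and Tfpi (0.55). For Fgf4 they were Rflnb (0.46) and Acsl6 (0.48), for Fgf3 Dner (0.48) and Mex3b (0.49), and for Fgf15 Thsd4 (0.63) and Itgb8 (0.64). The SDs of these last 3 members were 1.10, 1.05 and 0.97, so that the likeness says least where the member itself varied little.

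Of the other 14 FGF family genes, 8 passed the filter on low counts. CEpiLC against EpiLC gave 2 called, both lower, beside 42.2% of all genes. SOX2-ON against SOX2-OFF gave 1, higher, beside 28.8%. Fgf14, an intracellular FGF-related protein that modulates sodium channels, fell by 1.53 in the first (SE 0.26, edgeR adjusted p = 4.2e-04) and was 1.36 higher in the second (SE 0.40, edgeR adjusted p = 0.0215). Both SOX2 TetON groups had 5 of the 8 lower than CEpiLC and none higher, beside 48.5% of all genes called in SOX2-OFF and 56.5% in SOX2-ON. Fgf2, singled out after its values were seen because its protein was in the medium, had between 0 and 3 counts in every library.

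Among 32 genes of FGF reception and signalling, 31 were tested. In CEpiLC against EpiLC 8 were higher and 10 lower (42.2% of all genes were called), and in SOX2-ON against SOX2-OFF 10 were higher and 3 lower (28.8% of all genes). Fgfr2, the receptor whose epithelial form binds FGF10 and FGF3, fell by 3.61 (SE 0.26) in CEpiLC and was 1.68 (SE 0.25) higher in SOX2-ON than in SOX2-OFF. Fgfr3 and Fgfr4 fell by 2.09 (SE 0.37) and 1.90 (SE 0.56) in CEpiLC. Fgfbp3, a secreted FGF-binding protein, was higher by 1.24 (SE 0.32) in CEpiLC than in EpiLC and by 2.25 (SE 0.38) in SOX2-ON than in SOX2-OFF.

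Klb, the co-receptor that endocrine FGFs such as FGF15 need, had at most 3 counts in any wild type library, at most 0.13 TPM. It was at 10.7, 13.7 and 10.1 TPM in SOX2-OFF and at 5.29, 6.54 and 11.8 TPM in SOX2-ON, so that it separated the lines as Fgf10 did. Fgfr4 was above CEpiLC by 3.62 (SE 0.50) in SOX2-OFF and 3.10 (SE 0.51) in SOX2-ON, and the adaptor Gab1 by 1.47 (SE 0.09) and 1.78 (SE 0.09). Gab1 is on chromosome 8, and with the chromosome medians removed it gave 0.87 and 1.18, both still called. Other called differences from CEpiLC over 1 were Fgfbp3 in SOX2-OFF (-2.94, SE 0.37), and Fgfr2 (2.19, SE 0.26), Spry1 (1.24, SE 0.17) and Spry4 (1.09, SE 0.38) in SOX2-ON. Against EpiLC, 12 of the 31 were higher and 8 lower in SOX2-OFF, and 14 higher and 8 lower in SOX2-ON, where 62.1 and 59.8% of all genes were called. Some of these calls moved with the chromosome medians. In SOX2-OFF, Fgfr1 (chromosome 8) counted as higher and Spred2 (chromosome 11) as lower. With the medians removed they gave -0.31 and 0.23 (edgeR adjusted p = 0.0370 and 0.0292). Dusp4 (chromosome 8) no longer passed (0.39, edgeR adjusted p = 0.240). In SOX2-ON against EpiLC, Fgfr1 and Spred2 no longer passed (-0.02 and 0.06, edgeR adjusted p = 0.897 and 0.578). Gab1, Grb2 and Etv4 kept direction and call against EpiLC in both SOX2 TetON groups. Against CEpiLC, Grb2 in SOX2-ON lost its call with the medians removed (0.0008, edgeR adjusted p = 0.991).

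Feedback and target genes of the pathway did not share the direction of Fgf8 in every comparison. In CEpiLC against EpiLC, 6 of 13 were higher and 2 lower, beside 42.2% of all genes called. Those higher included Il17rd (1.83, SE 0.13), Spred1 (1.28, SE 0.07) and Etv4 (1.27, SE 0.24). In SOX2-ON against SOX2-OFF, where Fgf8, Fgf17 and Fgf5 were lower, 5 of 13 were higher and 2 lower, beside 28.8% of all genes called. Spry2, an inhibitor of receptor tyrosine kinase signalling, was higher there by 1.21 (SE 0.19, edgeR adjusted p = 3.5e-04) and Spry4 by 1.07 (SE 0.38, edgeR adjusted p = 0.0492). All cultures received the same bFGF, so these genes were read against a supplied ligand as well as the endogenous ones.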

How the data were processed

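The authors trimmed reads with cutadapt 1.16, aligned them with STAR 2.5.2a to mm10 and quantified genes with RSEM 1.3.0, per the labels' processing notes and the study's methods. The deposited table holds expected counts, which need not be whole, and TPM values scaled by the authors for transcript length. Replicates were not pooled. Expected counts were rounded. Of 24736 genes, 14196 passed edgeR's filterByExpr. Groups were compared by quasi-likelihood F tests in edgeR 4.0.16 (R 4.3.3) with TMM scaling (factors 0.97 to 1.02), 1 model of all 12 libraries without covariates, and Benjamini-Hochberg adjustment over all genes tested. SEs were derived from the F statistic. The script was tested on simulated data. Depth was 10408252 to 27337740 counts without molecular identifiers, so intervals cover counting error alone.

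Alternatives were RLE or library-size scaling, 2 other filters, DESeq2 1.42.0, limma-voom 3.58.1, a fit of only the 6 libraries compared, a replicate block, a threshold of 0.01, removal of chromosome medians (for pathway genes chosen after seeing the data), leaving out each library, and CPM for shares. The members, gene lists and tests were chosen with earlier results of these data known. Members were named in full, other FGF and pathway genes where called at an absolute log2 fold change over 1 in CEpiLC against EpiLC or SOX2-ON against SOX2-OFF (pathway genes also in the comparisons with CEpiLC). Same-numbered EpiLC and CEpiLC libraries deviated together across genes (r = 0.12, 0.13 and 0.10), which hints at pairing in that comparison, but the printed values are from the fit without the block. In the other 5 comparisons at least 1 correlation was under 0.1. The hint was still not confined to the wild type groups. With CEpiLC as reference, r was 0.05, 0.18 and 0.17 for SOX2-OFF. For SOX2-ON it was 0.06, 0.20 and 0.16. SOX2-ON against SOX2-OFF gave 0.05, 0.07 and 0.09. In each of these comparisons, libraries correlated best with the library of their own number. This did not hold for the SOX2 TetON groups against EpiLC. The genes most like Fgf18 are not reported here.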

Additional observations from a re-analysis of the deposited data

How the results depend on the processing

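The number of members called moved by at most 1 in each of the 6 comparisons under every alternative that was run, among them a replicate block, which gave 5 members in CEpiLC against EpiLC and 3 in SOX2-ON against SOX2-OFF. With the block 6 members were called in SOX2-ON against CEpiLC and 5 in SOX2-ON against EpiLC, Fgf3 being added in both. An unchanged number can hide a swap of members. Without CEpiLC replicate 1, Fgf18 lost its call and Fgf4 gained one in CEpiLC against EpiLC. In SOX2-ON against CEpiLC, the same omission lost Fgf18 and gained Fgf5. At an adjusted p of at most 0.01, the calls over all genes fell to 3968 in CEpiLC against EpiLC and 2437 in SOX2-ON against SOX2-OFF, from 5994 and 4091. Of 1007 alternative values of the 48 member tests, 973 kept direction and call, 17 lost the call, 8 gained it in the same direction and 9 changed sign, of which 1 also passed (Fgf5 in SOX2-ON against CEpiLC without CEpiLC replicate 2). The sign changes were in differences whose reported value had not passed. Leaving out each library in turn gave -0.76 to 0.22 for Fgf3 in SOX2-OFF against CEpiLC, -0.65 to 0.56 for Fgf5 and -0.99 to 0.15 for Fgf15 in SOX2-ON against CEpiLC, -0.32 to 0.13 for Fgf10 and -0.0029 to 0.28 for Fgf18 in SOX2-ON against SOX2-OFF, and -0.066 to 0.23 for Fgf18 in SOX2-OFF against EpiLC. In limma-voom, Fgf5 in SOX2-ON against CEpiLC was at 0.077. The cause was not tested. Depth limits Fgf3 and Fgf8 in EpiLC, with at most 9 counts per library.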
